A study of Mus musculus with 16 samples.

Results

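Of the 24828 genes tested, 10 were examined: the transcriptional regulators of mitochondrial biogenesis Ppargc1a, Ppargc1b, Esrra, Esrrg, Nrf1, Tfam, Ppara and Ppard, and the uncoupling proteins Ucp2 and Ucp3. They were taken by name, and their probes were those whose RefSeq accession in the scanner files maps to the symbol. The 10 genes had 16 probes, all 16 of which passed the signal filter. The tissue was tibialis anterior, a fast muscle of the lower leg, of mouse offspring in 4 groups of 8 mice: undernourished CR (calorie-restricted offspring of dams given 50% less food in week 3 of gestation), undernourished AL (offspring of such dams fed ad libitum), control CR (calorie-restricted offspring of dams that were not food restricted) and control AL (ad libitum offspring of such dams). RNA of 2 mice was pooled for each array, giving 4 one-colour Agilent arrays per group and 16 in all. The labels used here give neither strain, sex and age of the mice nor the degree and length of the offspring's restriction. They do not say whether pools share a litter, so the p-values measure the spread between pools.

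Mitochondrial biogenesis is driven by the PGC-1 coactivators, which carry no DNA-binding domain of their own and act by docking on transcription factors such as the estrogen-related receptors (ERR), the nuclear respiratory factors and the PPARs. These factors switch on nuclear genes of respiration and fat oxidation, and also Tfam, which is imported into mitochondria to package and transcribe their DNA. Ucp2 and Ucp3 are carriers of the inner mitochondrial membrane related to the heat-producing Ucp1 of brown fat. Ucp3 is the form typical of skeletal muscle and is known to rise with fasting and fatty acids, while Ucp2 is broadly expressed and abundant in immune cells.

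Values below are log2 signal relative to the array's own 75th percentile, so 0 is the level of that percentile, and levels of different probes are not set against each other. Muscle transcripts were high on all arrays, with Acta1 between 8.84 and 9.84 and Ckm between 8.01 and 8.67. The median level of 18 muscle fibre markers ranged from 8.65 to 9.01 in undernourished CR and from 8.96 to 9.28 in undernourished AL. It ranged from 8.70 to 9.01 in control CR and from 8.84 to 9.27 in control AL. Transcripts of other tissues were also present. The median of brain markers was higher on the AL arrays, and skin markers were raised on some AL arrays and on undernourished CR replicate 2 (median -1.75). The median level of 29 brain markers ranged from -5.78 to -5.20 in undernourished CR, from -2.50 to -1.34 in undernourished AL, from -5.56 to -5.20 in control CR and from -2.12 to 0.93 in control AL. That of 15 skin markers ranged from -4.55 to -1.75, from -3.49 to -1.93, from -4.29 to -4.17 and from -3.02 to 1.42 in the same 4 groups. Each of the 4 slides held 2 arrays of each maternal diet under 1 offspring diet. All CR arrays were scanned on a different day, and lay on other slides, than all AL arrays, so that offspring diet and scan day cannot be told apart.

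Calorie restriction was the comparison in which members moved. In undernourished offspring limma called 2 of the 10 genes, Ppargc1b higher and Ucp2 lower, and in control offspring 3 of 10, Ppargc1b and Esrra higher and Ucp2 lower. A call means a Benjamini-Hochberg adjusted p under 0.05 over all genes tested. Of all genes, 10.4% were called higher and 9.86% lower in undernourished offspring, and 17.2% higher and 15.1% lower in control offspring, so these counts of members are near the background. The median difference of the 10 genes was -0.02 log2 units in undernourished and 0.17 in control offspring, beside -0.0035 and 0.06 for all genes.

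**Figure D1:**
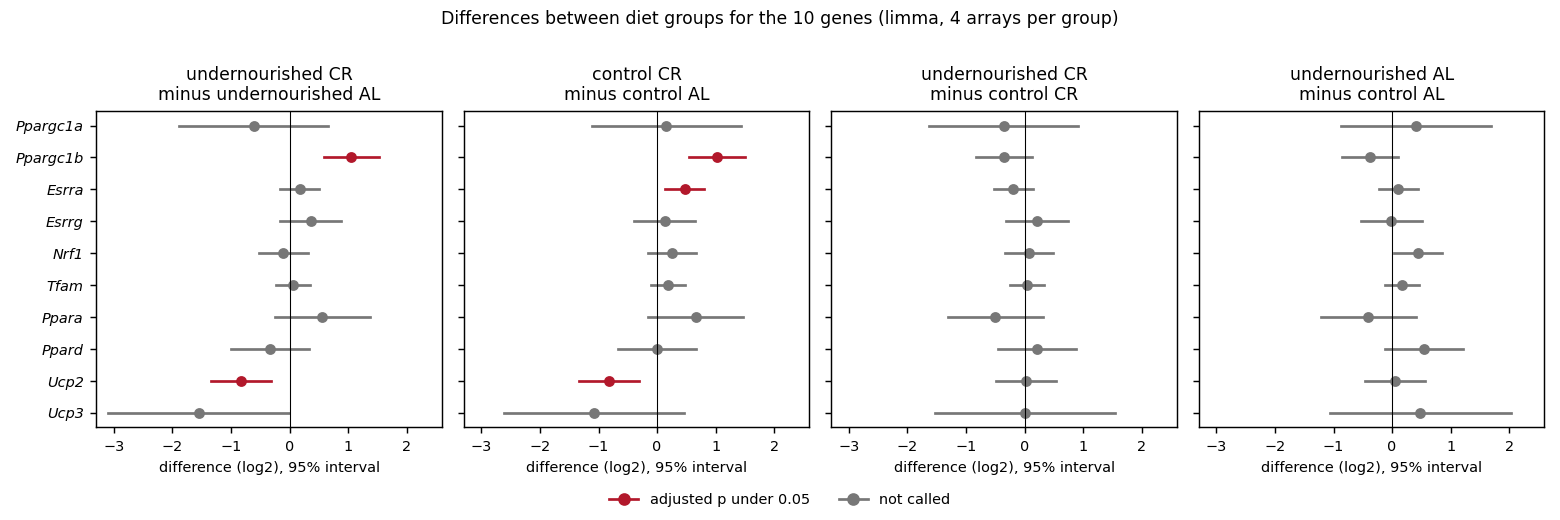
Difference in log2 signal (x axis) of each of the 10 genes (rows) with its 95% interval from limma, in 4 comparisons with 4 arrays per group; red marks an adjusted p under 0.05. Ppargc1b is higher and Ucp2 lower under CR after both maternal diets, Esrra is called higher in control offspring, and nothing is called between maternal diets.

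Ppargc1b encodes PGC-1β, a coactivator that raises mitochondrial gene expression and oxidative capacity in muscle. Its signal was 2.87, 2.77, 3.10 and 2.18 on the undernourished CR arrays, against 2.09, 1.84, 1.06 and 1.72 on the undernourished AL arrays. It was 3.11, 2.96, 2.91 and 3.33 on the control CR arrays, against 2.11, 2.02, 1.79 and 2.29 on the control AL arrays. Every CR array was above every AL array of the same maternal diet, and the closest values were those of undernourished CR replicate 4 and undernourished AL replicate 1. Such separation was seen in 26.0% and 31.8% of genes in undernourished and control offspring.

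The difference was 1.06 log2 units in undernourished offspring (2.08-fold, 95% interval 0.58 to 1.53, limma adjusted p = 0.00491) and 1.03 in control offspring (2.04-fold, 0.55 to 1.504, adjusted p = 0.00304). The second probe of the gene was also called in both, at 0.98 and 1.24 log2 units. The diet effect differed between maternal diets by 0.03 log2 units (95% interval -0.65 to 0.70, adjusted p = 0.98), an interval that leaves room for a sizeable difference either way. Leaving out 5 arrays (control AL replicates 1, 2 and 3, undernourished AL replicate 3 and undernourished CR replicate 2, which carried skin or liver transcripts) keeps 1 control AL array, whose spread is then borrowed from the other groups, and the control difference was 0.79 (adjusted p = 0.18).

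Ppargc1a encodes PGC-1α, the coactivator best known for its induction by exercise, cold and fasting. It had signals of 3.51, 2.56, 2.61 and 3.26 in undernourished CR, against 2.57, 2.59, 5.20 and 4.03 in undernourished AL. It had 2.88, 2.72, 4.29 and 3.47 in control CR, against 2.42, 3.29, 2.43 and 4.61 in control AL. The groups overlapped, and the spread within a group reached 1.27 log2 units (SD, n = 4, undernourished AL). Its differences under CR were -0.61 (95% interval -1.89 to 0.66) in undernourished and 0.15 (-1.12 to 1.43) in control offspring and were not called (limma adjusted p = 0.501 and 0.872). In control offspring the interval includes a rise as large as that of Ppargc1b. With 1 array left out the undernourished difference ranged from -0.95 (without undernourished AL replicate 1) to -0.079 (without undernourished AL replicate 3). The control one ranged from -0.16 to 0.63 and was below 0 without control AL replicate 1 or 3 or control CR replicate 3.

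**Figure D2:**
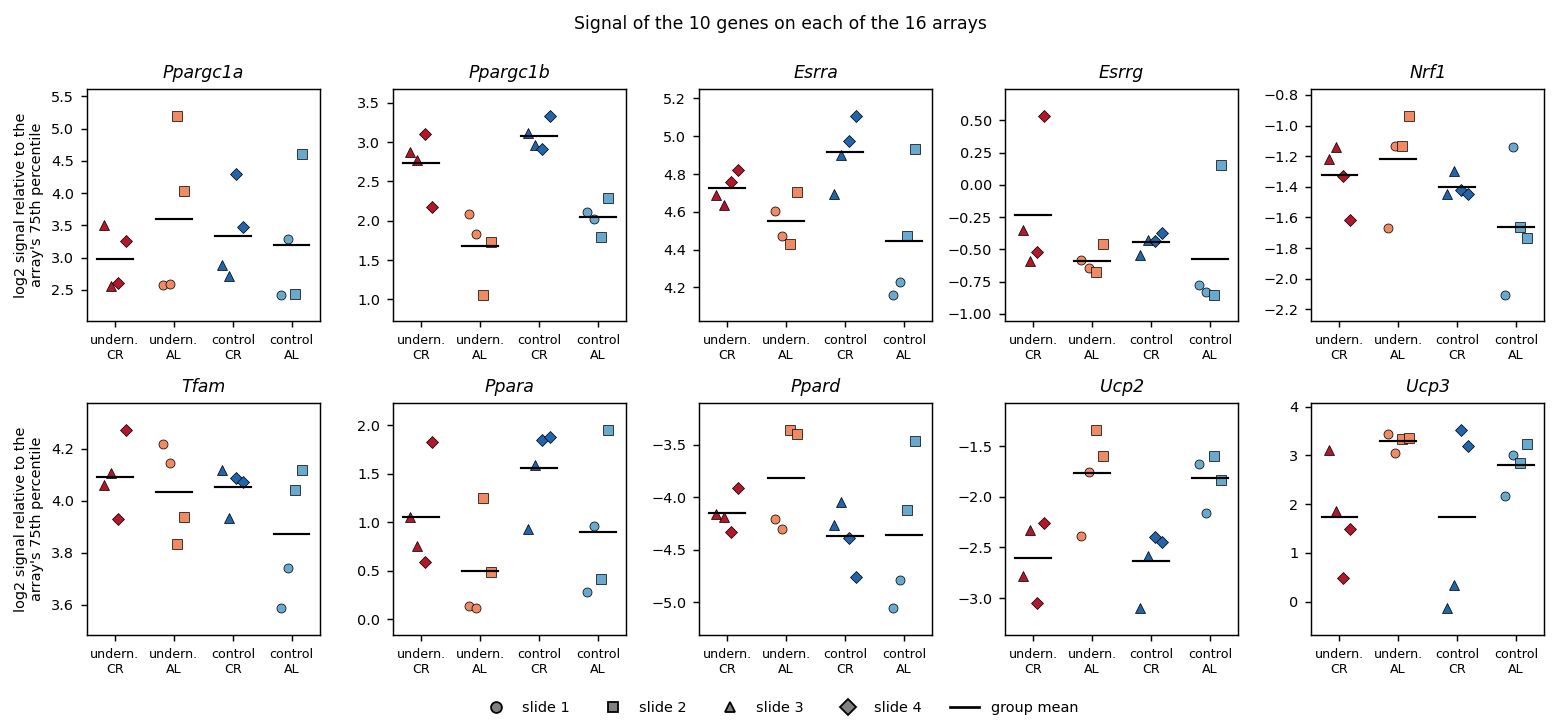
Log2 signal relative to the array's 75th percentile (y axis) of each of the 10 genes on the 16 arrays, by group (x axis); marker shapes give the slide and black lines the group means. The CR and AL arrays separate for Ppargc1b, while Ppargc1a and Ucp3 spread widely within groups.

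Esrra encodes ERRα, an orphan nuclear receptor that works with PGC-1 coactivators on genes of respiration. It had 4.69, 4.64, 4.76 and 4.82 in undernourished CR, against 4.61, 4.47, 4.43 and 4.70 in undernourished AL. It had 4.70, 4.90, 4.97 and 5.11 in control CR, against 4.16, 4.23, 4.47 and 4.93 in control AL. Control AL replicate 4 lay within the range of the control CR arrays, so the groups overlapped.

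The control difference was 0.47 log2 units (1.39-fold, 95% interval 0.14 to 0.80, limma adjusted p = 0.0298), and the undernourished one was 0.17 (-0.16 to 0.50, adjusted p = 0.458). The 2 differences were not shown to differ (-0.30, 95% interval -0.76 to 0.17, adjusted p = 0.643). The control call was lost without control AL replicate 1 or 2 or control CR replicate 2, 3 or 4 (adjusted p = 0.056 to 0.0975), and leaving out instead the 5 arrays of skin or liver signal listed for Ppargc1b turned the difference to -0.0125 (adjusted p = 0.977). With an index of the brain markers as a covariate it was 0.099 (adjusted p = 0.732).

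Promoter windows of RefSeq (GRCm38.p6; 250 bases before to 50 after the annotated start) were used for 9 of the 10 genes, 13 windows in all, and none for Ppargc1b. They were searched on both strands for AAGGTCA (the half-site to which ERR proteins bind), AGGTCA (the nuclear receptor half-site, contained in the first), CACGTG (an E-box) and GCATGCG (part of the palindrome bound by NRF1). Of 32851 windows, 4.72%, 16.3%, 7.15% and 3.58% hold these. Among the genes not called, GCATGCG matched in windows of Ppara (positions -30 and -29, on opposite strands) and Esrrg (-247 and -18). The Esrra window is shown because the gene was called and its window holds 1 match to the NRF1 letters, in capitals, at position -34 from the start site. It lies at chr19:6921759-6922058 on the minus strand, at the 5′ end of the gene (chromosome 19, 6910977 to 6922048).
Esrra: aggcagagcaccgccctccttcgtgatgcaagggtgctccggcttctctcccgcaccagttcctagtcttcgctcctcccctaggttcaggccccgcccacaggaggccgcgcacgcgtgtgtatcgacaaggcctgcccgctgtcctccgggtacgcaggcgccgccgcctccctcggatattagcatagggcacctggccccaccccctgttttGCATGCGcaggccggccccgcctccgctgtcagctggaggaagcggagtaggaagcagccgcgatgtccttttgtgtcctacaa

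Esrrg encodes ERRγ, the receptor of the family tied to oxidative fibres. Its signal ranged from -0.59 to 0.54 in undernourished CR, from -0.68 to -0.46 in undernourished AL, from -0.54 to -0.37 in control CR and from -0.85 to 0.15 in control AL. The 4 ranges overlapped, and the differences under CR were 0.36 (95% interval -0.16 to 0.88) and 0.13 (-0.39 to 0.65) in undernourished and control offspring, neither of them called (limma adjusted p = 0.32 and 0.717). Its second probe differed in direction in undernourished offspring, at -0.68 with an adjusted p over probes of 0.00987, so the probes of Esrrg disagreed and no direction is given for the gene.

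Nrf1 encodes nuclear respiratory factor 1, which activates nuclear genes of respiration and Tfam. Its signal ranged from -1.62 to -1.14 in undernourished CR, from -1.67 to -0.94 in undernourished AL, from -1.45 to -1.30 in control CR and from -2.10 to -1.14 in control AL. Tfam, the packaging and transcription factor of mitochondrial DNA, ranged from 3.93 to 4.27, from 3.83 to 4.22, from 3.93 to 4.12 and from 3.58 to 4.12 in the same groups. Groups overlapped for both genes.

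The differences of Nrf1 under CR were -0.11 in undernourished and 0.26 in control offspring, and those of Tfam 0.06 and 0.18, none of them called (limma adjusted p = 0.731, 0.336, 0.794 and 0.333). The further probes gave larger control differences: 0.75 for Nrf1 and 0.72 for Tfam, called over probes (adjusted p = 0.00476 and 0.00218). In undernourished offspring they were 0.27 and 0.18 (adjusted p = 0.302 and 0.428). The outcome for these genes in control offspring thus depended on the probe, as the plot of probe differences shows.

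**Figure D3:**
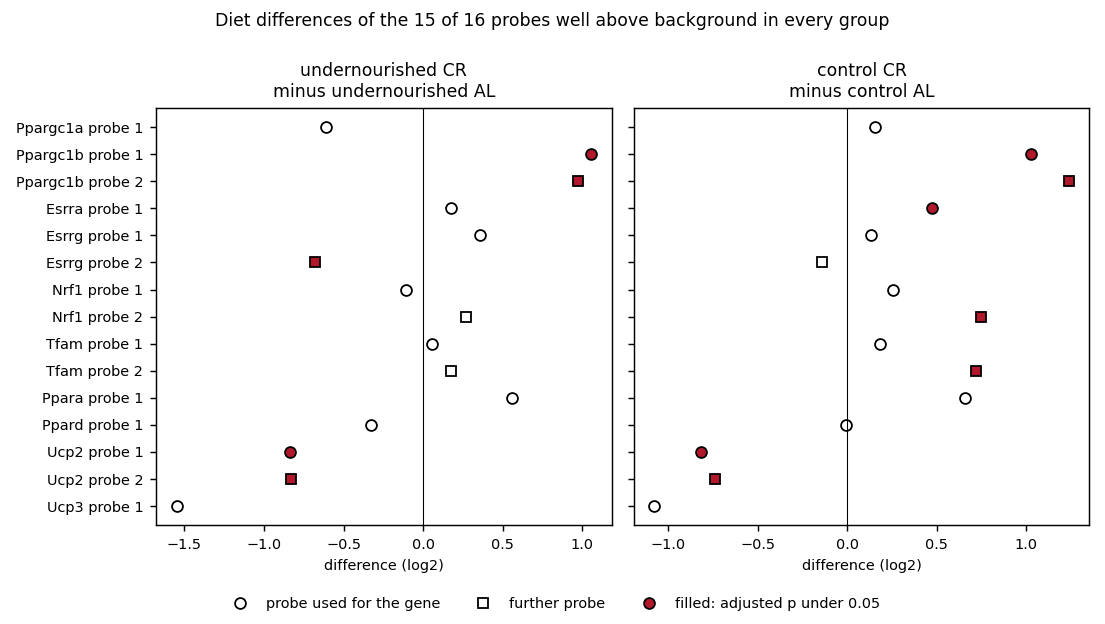
Log2 difference under CR (x axis) for the 15 of the 16 probes well above background in at least 1 array of every group (rows), in undernourished and control offspring; circles are the probes used for the gene, squares the further ones, and filled markers have an adjusted p under 0.05. Both Ppargc1b probes and both Ucp2 probes plotted are called, whereas those of Esrrg, Nrf1 and Tfam differ.

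Ppara encodes the PPAR that drives fatty acid oxidation in fasting. Its signal ranged from 0.59 to 1.83 in undernourished CR, from 0.11 to 1.25 in undernourished AL, from 0.93 to 1.88 in control CR and from 0.28 to 1.95 in control AL. The differences were 0.56 (95% interval -0.25 to 1.37) and 0.66 (-0.15 to 1.47) and were not called (limma adjusted p = 0.318 and 0.205). Without control AL replicate 4, whose value was 1.95, the control difference was 1.01 and called (adjusted p = 0.0337), the only call among the 16 fits with 1 array left out. Over all 29 alternatives the control difference ranged from -0.39 to 1.14 and was called in 2.

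Ppard encodes PPARδ, the PPAR most abundant in muscle. It was dim, with a signal from -4.33 to -3.91 in undernourished CR, from -4.30 to -3.36 in undernourished AL, from -4.76 to -4.05 in control CR and from -5.06 to -3.46 in control AL, and it was well above background on 15 of 16 arrays. Its differences of -0.33 and -0.0076 were not called (limma adjusted p = 0.489 and 0.989).

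Ucp2 and Ucp3 lie next to each other on chromosome 7 (100493337 to 100499629 and 100472991 to 100486432, GRCm38.p6, both on the plus strand), with 6904 bases between them. Their promoter windows are shown to set the neighbours side by side. The Ucp3 window (chr7:100472741-100473040) holds 2 matches to AGGTCA, in capitals, at positions -149 and -44 from the start site. The Ucp2 window (chr7:100493108-100493407) holds none of the 4 letter strings.
Ucp2: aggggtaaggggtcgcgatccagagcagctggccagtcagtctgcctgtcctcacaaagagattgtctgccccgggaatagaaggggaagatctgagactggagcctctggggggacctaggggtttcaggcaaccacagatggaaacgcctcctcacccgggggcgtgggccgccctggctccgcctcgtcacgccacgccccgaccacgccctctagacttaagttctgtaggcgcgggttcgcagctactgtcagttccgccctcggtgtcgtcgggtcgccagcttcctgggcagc
Ucp3: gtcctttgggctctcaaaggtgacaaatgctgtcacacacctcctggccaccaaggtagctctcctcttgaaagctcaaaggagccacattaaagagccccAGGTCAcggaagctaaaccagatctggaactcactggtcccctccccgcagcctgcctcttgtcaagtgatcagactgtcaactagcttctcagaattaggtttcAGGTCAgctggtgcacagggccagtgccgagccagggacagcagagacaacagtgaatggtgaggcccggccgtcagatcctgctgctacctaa

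Ucp2 had signals of -2.78, -2.33, -3.04 and -2.26 in undernourished CR, against -2.39, -1.76, -1.34 and -1.60 in undernourished AL. It had -3.10, -2.58, -2.40 and -2.45 in control CR, against -1.67, -2.16, -1.60 and -1.84 in control AL. All control CR arrays were below all control AL arrays, whereas undernourished AL replicate 1 fell among the undernourished CR arrays. The control CR and control AL arrays were apart, in either direction, in 31.8% of all genes.

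The difference was -0.83 log2 units in undernourished offspring (95% interval -1.35 to -0.32, limma adjusted p = 0.0243) and -0.82 in control offspring (-1.33 to -0.31, adjusted p = 0.0174), or 1.78-fold and 1.76-fold lower. The second probe was called in both too, at -0.83 and -0.74, and the third was well above background on no AL array. The undernourished call was lost without undernourished AL replicate 2, 3 or 4 or undernourished CR replicate 1 or 3 (adjusted p = 0.0511 to 0.0778). The control call was lost without control CR replicate 1 (0.06). Both calls were also lost after quantile normalization (adjusted p = 0.0564 in undernourished and 0.0702 in control offspring), in the authors' log2 table (0.23 and 0.267), after the planned normexp correction, where the differences were -0.35 and -0.20, and without the 5 arrays of skin or liver signal (0.0894 and 0.248). The undernourished call was lost in a fit of only the groups compared (0.0585), and the control call with the brain index as a covariate (0.0807) and without both control AL arrays of slide 1 (0.0515).

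Of 19 macrophage and leukocyte markers, none was higher under CR, 2 were lower in undernourished and 15 in control offspring. Their summed signal, in multiples of the 75th percentile, ranged from 5.41 to 8.23 in undernourished CR, from 6.55 to 13.4 in undernourished AL, from 4.56 to 6.58 in control CR and from 9.75 to 17.4 in control AL. On every array 18 or 19 of the 19 were well above background. Of the brain markers 17 and 25 of 29 were lower and 2 and 1 higher, and of the skin markers 0 and 11 of 15 were lower, in undernourished and control offspring. Of the 18 muscle fibre markers, 0 were higher and 6 lower in undernourished offspring, and 3 higher and 3 lower in control offspring. Of all genes, 10.4% were called higher and 9.86% lower in undernourished offspring, and 17.2% and 15.1% in control offspring. The part of the leukocyte or muscle fibre markers in the Ucp2 difference was not tested. With the brain index as a covariate the control difference of Ucp2 was -0.96. Without the 5 arrays of skin or liver signal the differences were -0.78 in undernourished and -0.80 in control offspring. Fewer cells of a type and less RNA per cell cannot be told apart in such bulk samples.

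Ucp3 had signals of 3.11, 1.86, 0.49 and 1.49 in undernourished CR, against 3.44, 3.04, 3.33 and 3.34 in undernourished AL. It had -0.14, 0.34, 3.52 and 3.20 in control CR, against 2.16, 3.001, 2.84 and 3.23 in control AL. The AL arrays lay between 2.16 and 3.44. The control CR arrays fell into a low pair on slide 3 and a high pair on slide 4, and the undernourished CR arrays were higher on slide 3 than on slide 4.

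The differences of -1.55 log2 units in undernourished (95% interval -3.09 to -0.0056) and -1.08 in control offspring (-2.62 to 0.47) were not called (limma adjusted p = 0.143 and 0.278). With 1 array left out the undernourished difference ranged from -2.01 to -1.13, and the control one from -1.68 (without control CR replicate 3) to -0.45 (without control CR replicate 1). Between maternal diets the CR difference was 0.0078 over both slides, 2.39 within slide 3 and -2.37 within slide 4, from 2 arrays per group each (adjusted p = 0.695 and 0.975). The standard deviation was 1.08 in undernourished CR, 0.17 in undernourished AL, 1.90 in control CR and 0.46 in control AL (n = 4 each).

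Pdk4, an inhibitory kinase of pyruvate dehydrogenase, had 6.07, 7.36, 3.57 and 6.91 in undernourished CR and 3.06, 3.97, 7.29 and 7.02 in control CR. The AL arrays lay between 8.54 and 9.05 after undernutrition and between 8.05 and 8.54 in controls. Its low and high control CR arrays were the same pairs as for Ucp3. Pdk4 is one of the PPAR, ERR and PGC-1 targets named below.

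**Figure D4:**
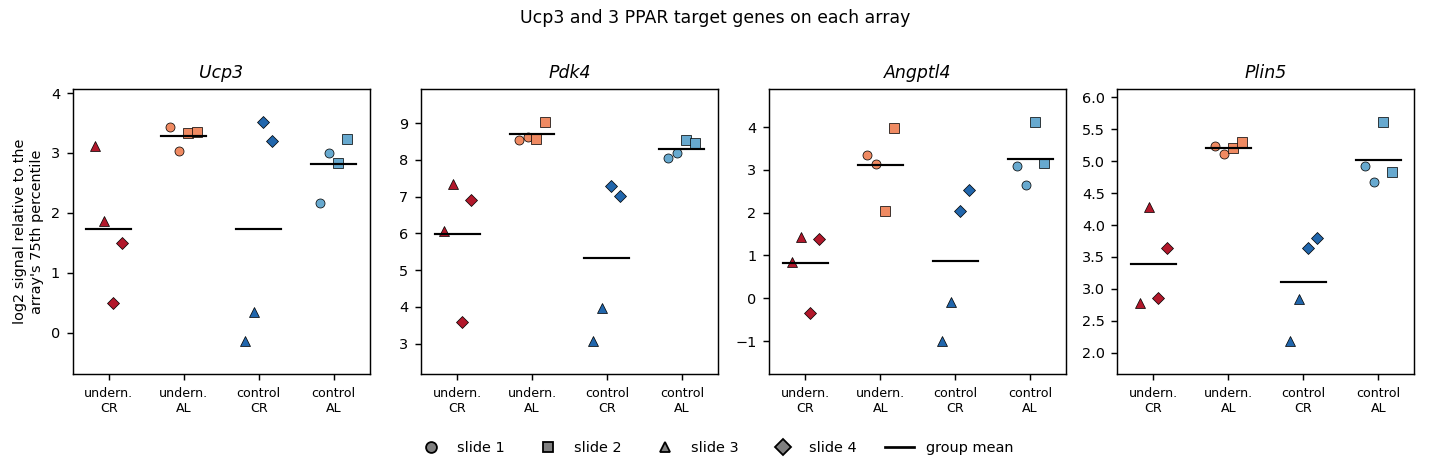
Log2 signal relative to the array's 75th percentile (y axis) of Ucp3 and of the 3 called genes of the target list with the largest control difference, on each of the 16 arrays by group (x axis); marker shapes give the slide and lines the group mean. The control CR arrays of slide 3 are below those of slide 4 in all 4 genes.

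Between maternal diets no member was called. In CR offspring the differences ranged from -0.50 (Ppara) to 0.22 (Ppard), undernourished minus control, and limma called none of 24828 genes (0%; 715 had an unadjusted p below the threshold). In AL offspring they ranged from -0.41 (Ppara) to 0.54 (Ppard), the smallest adjusted p was that of Nrf1 (0.44 log2 units, adjusted p = 0.227), and 0.0322% of all genes, 8 in number, were called. The same-numbered AL arrays varied together, but they also share a slide. With the replicate number as a block in a fit of only the AL groups limma called 0 genes (4595 had an unadjusted p below the threshold) and no member. The diet effect differed between maternal diets for no member (0.00403% of all genes), with a smallest adjusted p of 0.643 for Esrra. The intervals of these differences still allow changes of about the size of the Ppargc1b difference for Ppargc1a, Ppara and Ucp3, and for Ppard in AL offspring and in the difference of diet effects.

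Among the genes with a symbol, 14946 without missing values were ranked by likeness to each called member, measured as the root mean square difference of the values centred over the 16 arrays. For Ppargc1b, whose own SD over the arrays was 0.64, these were Igdcc4, Zfp41 and Sbk1 (0.21, 0.22 and 0.23 log2 units). For Esrra (SD 0.26) they were Slc38a10, Ptges2 and Clec16a (0.088, 0.098 and 0.11), and for Ucp2 (SD 0.53) Cables1, Igf1r and Snx20 (0.18, 0.20 and 0.20).

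Of 38 measured partners and modulators of PGC-1 coactivators, 4 were called higher and 3 lower under CR in undernourished offspring, and 10 higher and 4 lower in control offspring. The shares over all genes were 10.4% higher and 9.86% lower in undernourished, and 17.2% and 15.1% in control offspring. Mef2a, a muscle transcription factor, fell by 1.02 in undernourished offspring, Fbxw7, a subunit of a ubiquitin ligase, by 0.82 and the deacetylase Sirt1 by 0.76 (limma adjusted p = 0.000302, 0.00483 and 0.00721). In control offspring Camk4, a calcium-dependent kinase also abundant in neurons, fell by 2.02, Fbxw7 fell by 0.99 and the nuclear receptor Nr4a1 rose by 1.13 (adjusted p = 0.0032, 0.000763 and 0.0296). The list's median was -0.07 and 0.15 beside -0.0035 and 0.06 for all genes.

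Of 20 genes of mitochondrial DNA transcription and replication, 4 and 7 were higher in undernourished and control offspring and 0 were lower. Of all genes, 10.4% and 17.2% were called higher and 9.86% and 15.1% lower. Slirp, a partner of the mitochondrial RNA-binding protein Lrpprc, rose by 0.63 in undernourished offspring, Lig3, the mitochondrial DNA ligase, by 0.53 and Fastkd2, a mitochondrial RNA-binding protein, by 0.49 (limma adjusted p = 0.0224, 0.0437 and 0.0315). In control offspring Nsun4, a methyltransferase of mitochondrial ribosomal RNA, rose by 0.92, Lig3 by 0.88 and Twnk, the mitochondrial DNA helicase, by 0.70 (adjusted p = 0.000449, 0.0017 and 0.0126). The list's median was 0.11 and 0.30.

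Of 22 genes of mitochondrial import and chaperones, 2 were higher and 0 lower in undernourished offspring, and 8 higher and 1 lower in control offspring, with medians of 0.27 and 0.34. The shares over all genes were 10.4% higher and 9.86% lower in undernourished, and 17.2% and 15.1% in control offspring. Timm9, a chaperone of the intermembrane space, rose by 0.69 and 0.83 in undernourished and control offspring, and Timm8b, of the same family, by 0.62 in undernourished offspring (limma adjusted p = 0.00785, 0.00138 and 0.0122). In control offspring the chaperone Trap1 rose by 0.71, and Timm10, the partner of Timm9, fell by 0.72 (adjusted p = 0.00106 and 0.0189).

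Of 39 PPAR, ERR and PGC-1 target genes, 2 were higher and 6 lower in undernourished offspring, and 4 higher and 7 lower in control offspring, while the medians of -0.08 and 0.07 were near those of all genes. The shares over all genes were 10.4% higher and 9.86% lower in undernourished, and 17.2% and 15.1% in control offspring. Pdk4 fell, with differences of -2.72 and -2.97, as did Angptl4, an inhibitor of lipoprotein lipase, with -2.29 and -2.38, in undernourished and control offspring (limma adjusted p = 0.0419, 0.0187, 0.0306 and 0.0166). Plin5, a lipid droplet protein, fell by 1.90 in control offspring, and Tfrc, the transferrin receptor, rose by 1.95 in undernourished offspring (adjusted p = 0.00148 and 0.00117). Under the other maternal diet the group means of both genes moved the same way. Plin5 was 5.21 in undernourished AL and 3.39 in undernourished CR, and Tfrc 0.10 in control AL and 1.59 in control CR.

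Of 14 inner membrane carriers related to the uncoupling proteins, 2 were higher and 1 lower after each maternal diet. The shares over all genes were 10.4% higher and 9.86% lower in undernourished, and 17.2% and 15.1% in control offspring. Slc25a13, an aspartate and glutamate carrier, rose by 1.31 and Slc25a10, the dicarboxylate carrier, by 0.96 in undernourished offspring, where the muscle ADP/ATP carrier Slc25a4 fell by 0.50 but stood at 0.0871 in the authors' deposited log2 values (limma adjusted p = 0.00384, 0.00116 and 0.0266). In control offspring Slc25a25, an ATP-magnesium and phosphate carrier, rose by 1.92, Slc25a14 fell by 1.05 and Slc25a10 rose by 0.53 (adjusted p = 0.00147, 0.0134 and 0.0203). Slc25a14 stood at 1.78 and 1.61 on control AL replicates 1 and 2, the arrays with the highest median of brain markers. It stood at 0.40 and 0.43 on control AL replicates 3 and 4 and between -0.12 and 0.08 in control CR. Its difference in undernourished offspring was -0.14 and not called (limma adjusted p = 0.771). At most 3 called genes were named per list and comparison, so a gene named under 1 maternal diet may be called under both. Slirp and Timm8b were also called in control offspring (0.55 and 0.52, limma adjusted p = 0.0269 and 0.0201). Nsun4 was also called in undernourished offspring (0.44, adjusted p = 0.0483). Fastkd2 in control (0.36) and Twnk in undernourished offspring (0.26) were not (adjusted p = 0.0817 and 0.375). In none of the 5 lists was a gene called between maternal diets or in the difference of diet effects. The brain, skin and leukocyte markers given above also differed between diets in control offspring, and their part in the lists' counts is not reported here.

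**Figure D5:**
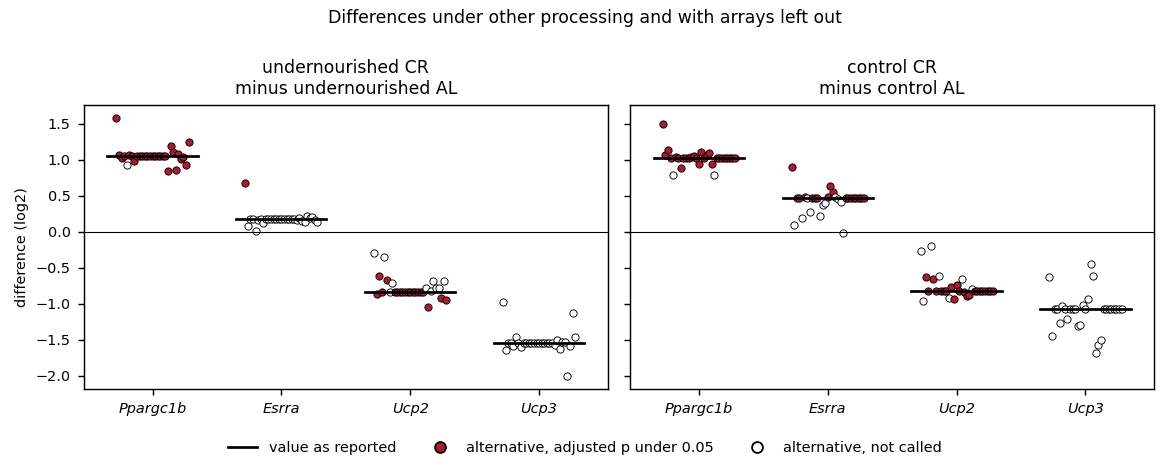
Log2 difference under CR (y axis) of Ppargc1b, Esrra, Ucp2 and Ucp3 (x axis) as reported (line) and under 29 alternatives (points, filled where the adjusted p is under 0.05), in undernourished and control offspring. Ppargc1b stays above 0 and Ucp2 below 0 in all of them, and Ucp3 is filled in none.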

How the data were processed

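Gene expression was measured in tibialis anterior with 1-colour Agilent arrays, from 200 ng of Cy3-labelled RNA per pool per the labels' protocols. The authors deposited 1 scanner file per array, whose intensity (green processed signal) was made with Agilent Feature Extraction 10.5.1.1 and background-subtracted per the file headers. The deposited files hold other columns, flags of 0 or 1 for spots well above background or outlying. The authors also deposited a log2 table whose normalization and centring are not given in the sources used here; its differences between arrays followed the scanner's with a median slope of 0.539 and 0.593 (correlation 0.865 and 0.852) for arrays of the same and of different scan days. Its column medians are -0.101 to 0.0374.

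Control and outlier spots were left out, and log2 signals were expressed relative to each array's 75th percentile (387 to 589 on AL and 540 to 829 on CR arrays). Between 66.4% and 74.0% of spots were well above background on AL arrays and between 74.3% and 78.5% on CR arrays, which limits precision. Both measures thus differed with offspring diet and scan day. Probes well above background on 4 or more of 16 arrays (32081) were kept, and the probe with the highest mean stood for a gene. Probes were named through RefSeq accessions (GRCm38.p6). The 4 group means were fitted in limma 3.58.1 (R 4.3.3), with 12 residual degrees of freedom and two-sided p-values adjusted by Benjamini-Hochberg over 24828 genes, and the fit was tested on simulated data. Members, lists and alternatives were chosen with earlier results of these data known. Named are the 10 members, up to 3 called genes with the largest difference per list and comparison, and the 3 genes most like each called member. Same-numbered undernourished AL and control AL arrays, which share a slide, all had a correlation of deviations over 0.1 (0.113 to 0.44 in 4 pairs). Their numbers were therefore taken as pairing them. Differently numbered arrays of the same slide were not compared, so pairing and a shared slide cannot be told apart. A block fit of only these groups was added after the data had been seen. In the CR groups 2 of 4 pairs passed 0.1 (0.0174 to 0.228), and between offspring diets none did (-0.145 to 0.0755), so those numbers were not taken as pairs. Normexp, planned on mean spot signals, was run on median spot and background signals; mean spot signals were not used here. After its result had been seen, a version with flagged local backgrounds replaced was added, and both are given.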

Additional observations from a re-analysis of the deposited data

Results flagged for a closer look

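Esrrg in control AL replicate 4 stood at 0.1513 log2 units relative to the array's 75th percentile, while the other 3 control AL arrays lay between -0.85 and -0.77, a gap large against the range of the group. It was 1 of the 40 groups of 4 arrays examined (10 genes in 4 groups), of which chance marks about 1 in 20.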

How the results depend on the processing

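Counts of members called between maternal diets and in the difference of diet effects were 0 under all alternatives run. For control CR minus control AL (3 as reported), 1 member was called after quantile normalization, with the brain index as covariate and without both control AL arrays of slide 1, 0 with the 5 arrays of skin or liver signal left out, 5 with the mean of all probes, 6 in the authors' log2 table, and 2 to 4 with 1 array left out. For undernourished CR minus undernourished AL (2 as reported), 1 was called after quantile normalization, in a fit of only these groups and without the 5 arrays, 5 in the authors' table, and 1 to 2 with 1 array left out. Slide as a block (random between offspring diets, consensus correlation 0.138) gave 3 members in control and 2 in undernourished offspring. The replicate block over all groups gave 3 and 2 members too, where the numbers were not taken as pairs. Between maternal diets in AL offspring, where they were taken as pairs, it gave 0 members and 6 genes. In a fit of only the AL groups, chosen after seeing the data, it gave 0 members and 0 genes. The block changed no other call of members. Planned normexp correction gave 0 members in both comparisons, with 521 and 63 genes called in control and undernourished offspring. The lowest signal minus local background was -64998 (control CR replicate 4), and the 25th percentile after correction was 1070 on control CR replicate 4 and 690 on undernourished CR replicate 1, against 64.0 to 115 on the other arrays. With flagged backgrounds replaced, a choice made after that result was seen, 3 members were called in each and 12075 and 13105 of 24828 genes. The 6 and 5 members called in the authors' table stand beside 13992 and 11848 of 24828 genes in control and undernourished offspring. The 5 members called in control offspring with the mean of all probes stand beside 8227 genes. Esrra turned to -0.0125 in control offspring without the 5 arrays. There the control CR mean of 4.92 is set against control AL replicate 4 alone, at 4.93. What sets that array apart was not tested. Slc25a4 turned to 0.0871 in the authors' table in undernourished offspring, and the cause was not tested. Ppargc1b was called in 28 and 27 of 29 alternatives (not with planned normexp, nor in controls with the 5 arrays left out), Ucp2 in 19 and 22, in undernourished and control offspring, and Esrra in 18 of 29 in control offspring.

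Genes called under CR numbered 5039 in undernourished and 8008 in control offspring, of which 51.4% and 53.2% were higher. They numbered 11848 and 13992 in the authors' table (87.1% and 81.4% higher), 10075 and 12342 with no filter on dim probes (28.8% and 35.3%), and 5430 and 8812 after quantile normalization (62.4% and 62.9%). With flagged backgrounds replaced 22.9% and 34.1% were higher, as the median of all genes lay at -0.24 and -0.17. In control offspring 3055 were called with the brain index (39.9% higher), 4384 without both control AL arrays of slide 1 and 909 without the 5 arrays (32.8%). Between maternal diets in AL offspring 8 genes were called as reported, 1970 with slide as a block, 1745 within slide 1, 0 within slide 2, and 2319 without control AL replicate 4; no member was among them. Dim signal limits Ppard and the third Ucp2 probe.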
